A study of Rattus norvegicus with 6 samples.

Results

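Collagen chains, the protein subunits of the fibres and sheets that hold a tissue together, were measured in the jejunum of rats after heat and shake stress. The members are all genes of the array whose rat symbol has the form Col, number, a, number, found through the RefSeq accession of each probe, with Col4a3bp left out because it is not a collagen. This gave 17 genes among the 13837 genes named on the array, and 26 probes among 41012. By the sort of structure they build, 7 are fibrillar chains, 2 are basement membrane chains and 8 are other chains. The basement membrane class holds type IV chains alone, so Col18a1, though found in basement membranes, counts among the other chains. The RefSeq table holds 44 collagen chain genes, and the 27 that were not matched to a probe, among them Col5a2, Col4a2, Col4a3, Col4a5, Col4a6, Col6a1, Col6a3, Col15a1 and Col17a1, were not analysed here.

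Male Sprague-Dawley rats, 6 weeks old and weighing 200 ± 20 g, were kept for 1 week at 25°C before they were divided. The S3d group then spent 2 h of each of 3 days on a shaker (0.1 × g, 35°C), and the control group was not stressed. Strain, sex, age, cages and free access to food and water were the same in both groups, and the sources name no allele. Total RNA of a washed and minced stretch of jejunum was hybridised to 1-colour Agilent rat arrays, 3 arrays per group, and the labels describe each sample as RNA mixed from 3 rats and give 10 rats per group. The study's methods give fewer rats per group, with which the pools of a group would have to share animals, so the samples may not be separate animals. The pooling hides the spread between single animals, and the samples hold every layer that was minced, so that in this tissue fewer cells of a type and less RNA per cell cannot be told apart. Each group had a slide and a scan of its own, which cannot be told apart from the stress.

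Collagen alpha chains are made in the rough endoplasmic reticulum, where their prolines and lysines are hydroxylated and the chains are wound into a helix that is secreted, trimmed and cross-linked. Fibrillar collagens, chiefly types I and III in the gut, form the cables of the lamina propria, submucosa and muscle coat, and fibroblasts and smooth muscle cells make most of them. Type IV collagen forms the sheet under the epithelium and around vessels and muscle cells. The remaining types link, anchor or decorate these networks, or sit in the cell membrane.

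Promoter stretches of 3 loci are shown to give the reference sequence upstream of chains described below, for which the array reads the RNA. They come from RefSeq on the rat assembly GRCr8, run 5′ to 3′ along the strand given, and carry in capitals every match, on either strand, to TATAAA (the TATA box), to CCAAT (the CCAAT box) or to GGGCGG (the GC box). The first is the whole interval of 76 bases between the start sites of Col4a1 and Col4a2, a pair of genes that share it and are read in opposite directions, and it lies on the plus strand at chr16:84885521-84885596. The second, at chr4:33518307-33518416 on the plus strand, covers bases −250 to −141 before the start site of Col1a2. The third, at chr8:27626039-27626148 on the minus strand, covers bases −200 to −91 before that of Col5a3.
Col4a1 and Col4a2: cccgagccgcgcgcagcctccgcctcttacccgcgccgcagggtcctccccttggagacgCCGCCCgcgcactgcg
Col1a2: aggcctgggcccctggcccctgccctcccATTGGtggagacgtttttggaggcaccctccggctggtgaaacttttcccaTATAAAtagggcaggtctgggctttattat
Col5a3: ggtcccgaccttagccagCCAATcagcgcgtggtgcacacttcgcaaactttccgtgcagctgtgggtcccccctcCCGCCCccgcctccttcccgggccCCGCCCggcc

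A promoter entry of 250 bases before to 50 after the start site was found for 12 of the 17 members. Of these, 8 held GGGCGG, which 30.5% of all 33469 promoters of that length hold. CCAAT was found in 3 of the 12, against 34.0% of all promoters, and TATAAA in Col1a2 alone, against 12.9%. A match is only a run of letters, and these counts describe the windows.

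Signals are given as the normalised log2 signal, which is the log2 of the scanner program's background-corrected signal after the array's own 75th percentile has been subtracted, so that 0 is that percentile. A log2 fold change is the mean of the arrays labelled S3d minus the mean of the arrays labelled control, and it is called changed at an adjusted p under 0.05 (limma, Benjamini-Hochberg over all tested probes) together with a fold of at least 1.5. Unless another probe is named, a gene is read by its brightest probe. The labels stand as the scanner files carry them: in the normalized table that the authors deposited, all 6 columns follow the scanner file of the other group, so by that table's labels the direction of the comparison is the opposite. The study took its directions as that table does, so most signs given here are opposite to its own. It also reports real-time PCR of selected genes whose directions went with its arrays, which was not used here. Before scaling, the 75th percentile was 415 to 430 under the control label and 1458 to 1558 under the S3d label, and 69.1% to 73.7% and 77.5% to 81.5% of the spots were well above background. No spot was saturated.

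Collagen chains did not move together. Of the 15 chains that could be tested, 4 were higher on the arrays labelled S3d (Col1a1, Col2a1, Col9a2 and Col23a1), 2 were lower (Col4a1 and Col6a2) and 9 did not pass. Col2a1 entered the test through the arrays labelled S3d alone, so the filter favoured a rise in it, and where signal was required on all 6 arrays 14 chains were tested with 3 higher and 2 lower. The background was high in both directions, since among the 11482 named genes tested by their brightest probe 49.2% were called, 25.2% higher and 24.0% lower. On adjusted p alone, without the minimum fold, 4 chains were higher and 7 lower, where 73.5% of all named genes passed, 36.1% higher and 37.4% lower. Over all 31367 probes tested the calls came to 52.5%, of which 29.2% were higher and 23.3% lower as shares of the probes. The groups did not overlap in 12 of the 15 chains, against 78.8% of the named genes. The median log2 fold change of the 15 chains was −0.19 and that of the named genes 0.0020. The chains' median turned to 0.058 with quantile normalization and to 0.081 with normexp and quantile normalization. Col4a4 and Col14a1 were not tested, because their brightest probes were not well above background on every array of either group.

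**Figure D1:**
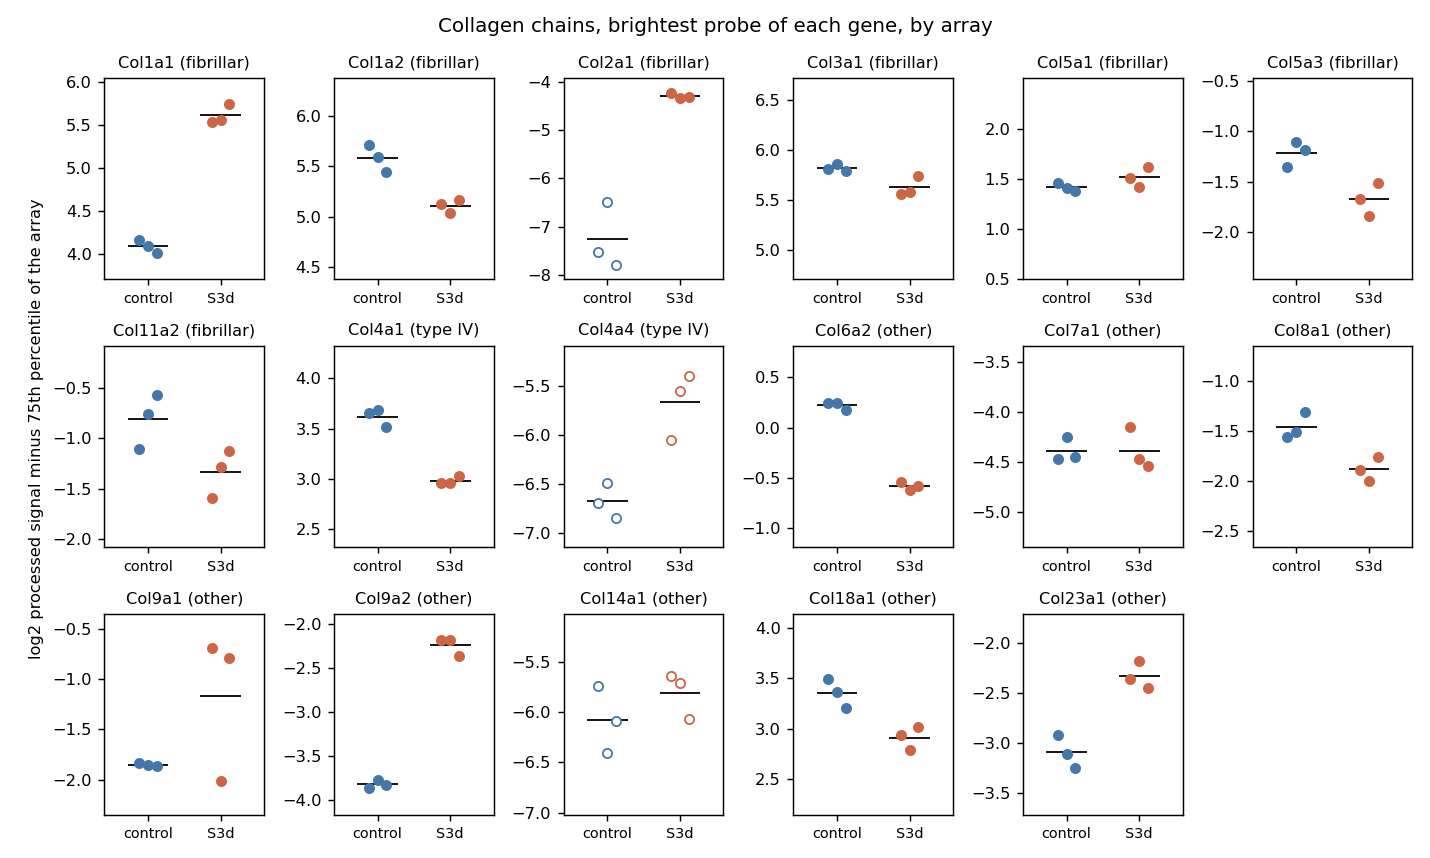
Normalised log2 signal (y axis, log2 scale, 0 at the array's 75th percentile) of the brightest probe of the 17 collagen chains, a panel per gene with its own y range. Each point is 1 array, the line is the mean of 3 arrays, and open points mark probes that were not well above background on all 3 arrays of that group. Col1a1, Col2a1, Col9a2 and Col23a1 are higher on the arrays labelled S3d and Col4a1 and Col6a2 lower, without overlap.

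Among the fibrillar chains, the largest rise above background on all arrays was that of Col1a1, the chain present in more than 1 copy in each molecule of type I collagen. Col1a1 read 4.16, 4.10 and 4.01 on the arrays labelled control and reached 5.53, 5.55 and 5.74 under the S3d label. Every array labelled S3d lay above every array labelled control, by far more than the arrays of a group differed. The log2 fold change was 1.52 (SE 0.084, adjusted p = 2.9e-05 by limma), a fold of 2.87. A second probe for the gene went the other way, as described below, and the mean over both probes gave 0.14 (adjusted p = 0.16).

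Col1a2, the partner chain of type I collagen, was not called. It read 5.72, 5.59 and 5.44 on the arrays labelled control, against 5.13, 5.03 and 5.17 on those labelled S3d, and the groups did not overlap. The log2 fold change of −0.47 (SE 0.091) passed the adjusted p (0.0040) but not the minimum fold, and its sign turned with quantile normalization, which gave 0.058. Median centring took it past the minimum fold, at −0.65 (adjusted p = 0.0013). The brightest probes of the pair that make up type I collagen therefore had opposite signs in the scaled values, and after quantile normalization Col1a1 read 2.00 while Col1a2 stood near 0.

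Col3a1, the chain of type III collagen, which forms thin fibres beside type I, read 5.81, 5.86 and 5.79 on the arrays labelled control. The arrays labelled S3d gave 5.56, 5.58 and 5.74 for this chain. The lower values lay apart from the higher ones without overlap, but the difference of −0.19 (SE 0.074, adjusted p = 0.054 by limma) did not pass, and quantile normalization turned it to 0.39 (adjusted p = 0.0079).

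Col5a1 belongs to type V collagen, which sits inside type I fibrils and limits their width. Its arrays overlapped, with 1.46, 1.41 and 1.38 under the control label and 1.51, 1.42 and 1.62 under the S3d label, and the difference was 0.10 (SE 0.074, adjusted p = 0.26). The related type V chain Col5a3 read −1.36, −1.10 and −1.19 against −1.67, −1.84 and −1.52, apart but by less than the minimum fold, at −0.46 (SE 0.11, adjusted p = 0.011). Col11a2, a chain of the cartilage fibril collagen type XI, read −1.11, −0.76 and −0.57 against −1.60, −1.29 and −1.12. Its groups touched closely without overlap and the difference of −0.52 (SE 0.18, adjusted p = 0.038) stayed under the minimum fold, though leaving out control replicate 1 (−0.67) or S3d replicate 3 (−0.63) brought it past.

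Col2a1, the chain of the main cartilage collagen, had the highest fitted value of the tested chains, and its probe had the lowest mean signal among theirs. The arrays labelled control read −7.51, −6.49 and −7.79, none of them well above background, and the arrays labelled S3d read −4.23, −4.35 and −4.32, all of them above it. The fitted difference of 2.96 (adjusted p = 0.00036 by limma) therefore rests on control values that were not above background. In this scaling the S3d mean lay 3.42-fold above the lowest signal that counted as well above background on each array labelled control. That ratio was not tested. Background correction by normexp with the 75th percentile gave −1.44 for the same probe, so the sign of this dim chain turned with the processing.

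Of the basement membrane chains, Col4a1 fell. It forms, with its neighbour Col4a2, the common type IV network, and the interval between their start sites is the first sequence above. Col4a1 read 3.65, 3.69 and 3.52 on the arrays labelled control, against 2.96, 2.95 and 3.03 on those labelled S3d. The groups were well apart, with a log2 fold change of −0.64 (SE 0.071, adjusted p = 0.00038 by limma). Quantile normalization kept the direction at −0.34, below the minimum fold, and normexp with the 75th percentile left −0.13 (adjusted p = 0.83).

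Col4a4, a chain of the type IV network known from the kidney filter, read −6.70, −6.49 and −6.85 on the arrays labelled control, against −6.05, −5.56 and −5.40 on those labelled S3d. None of the former and 2 of the latter were well above background, so the chain was not tested and no bound is given.

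Among the other chains, Col6a2 fell. It is a chain of type VI collagen, whose beaded filaments lie close to cells. The arrays labelled control read 0.24, 0.24 and 0.18 and the arrays labelled S3d −0.54, −0.62 and −0.58. The arrays of each group lay close together and the groups were far apart, with a log2 fold change of −0.80 (SE 0.061, adjusted p = 7.8e-05 by limma). The value was −0.79 after quantile normalization, and −0.63 (adjusted p = 0.11) with normexp and the 75th percentile.

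Type IX collagen is a chain assembly that decorates the surface of fibrils, best known from cartilage. Col9a2 rose, from −3.87, −3.77 and −3.83 on the arrays labelled control to −2.19, −2.19 and −2.36 on those labelled S3d. The groups were widely separated, at 1.58 (SE 0.075, adjusted p = 2.0e-05), and the signals were low on all arrays. Normexp with the 75th percentile gave −0.27 (adjusted p = 0.74) and quantile normalization 1.36.

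Its partner Col9a1 did not pass. The arrays labelled control read −1.83, −1.85 and −1.87, and those labelled S3d −0.69, −2.01 and −0.79, with S3d replicate 2 below all of the arrays labelled control and the other 2 far above them. The difference was 0.69 (SE 0.35, adjusted p = 0.12), and 1.11 (adjusted p = 0.00035) without S3d replicate 2, so this single array decided the call.

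Col23a1, a collagen of the cell membrane, rose from −2.92, −3.10 and −3.24 to −2.36, −2.18 and −2.44 on the arrays labelled S3d. There was no overlap, and the log2 fold change was 0.76 (SE 0.11, adjusted p = 0.0013). Normexp with the 75th percentile turned it to −0.67 (adjusted p = 0.34). Col7a1, the chain of the fibrils that anchor epithelia, did not pass, at −4.47, −4.25 and −4.45 against −4.16, −4.47 and −4.54 (difference 0.0003, SE 0.12, adjusted p = 1.00), while quantile normalization gave −0.42 (adjusted p = 0.027).

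Col18a1, a basement membrane collagen of vessels and epithelia whose end fragment is endostatin, read 3.50, 3.37 and 3.21 on the arrays labelled control. Under the S3d label it read 2.93, 2.79 and 3.02, apart from the former by less than the minimum fold (−0.45, SE 0.10, adjusted p = 0.0088). Col8a1, a short chain of vessel walls, was of the same kind, at −1.56, −1.51 and −1.31 against −1.89, −2.00 and −1.76 (−0.42, SE 0.10, adjusted p = 0.010). Col14a1, a chain found on the surface of fibrils, was well above background by its brightest probe on none of the arrays labelled control and on 2 of those labelled S3d. Its second probe was well above background on all 3 arrays labelled S3d alone, and its fitted difference of 0.84 (adjusted p = 0.11) was not called. The S3d mean of that probe lay 1.46-fold above the lowest signal that counted as well above background on each array labelled control.

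**Figure D2:**
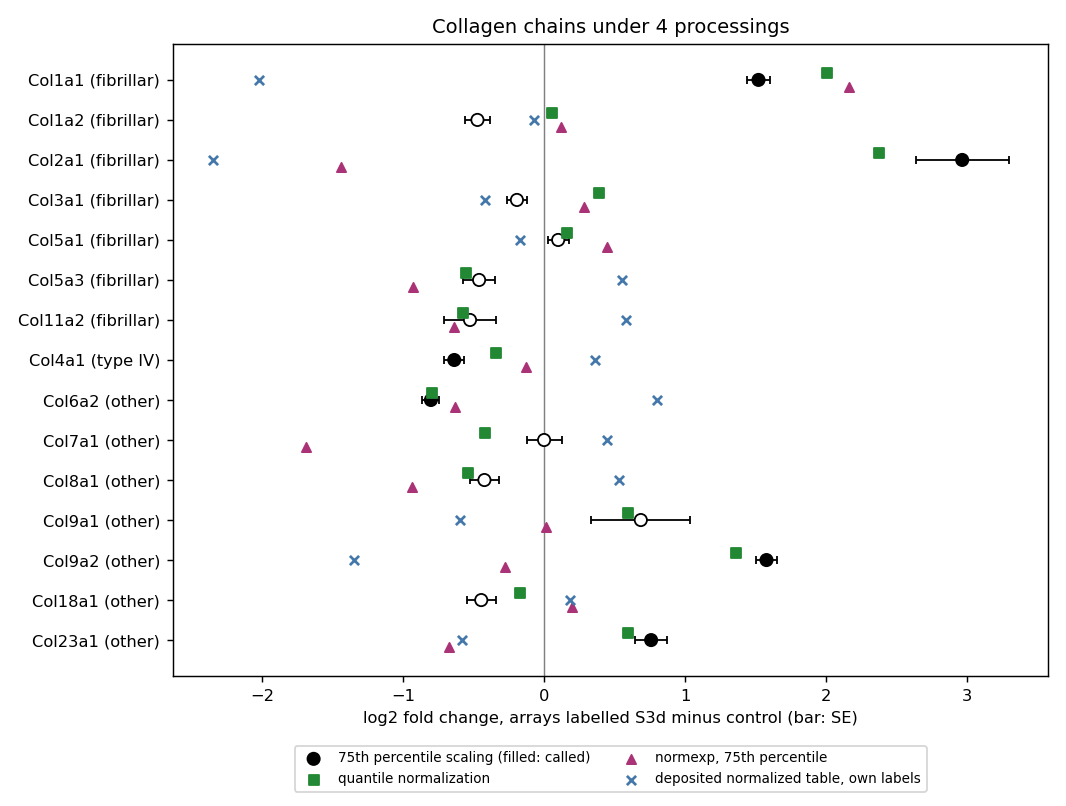
Log2 fold change (x axis, arrays labelled S3d minus control) of the 15 tested collagen chains (y axis) under 4 ways of processing. Circles are the 75th percentile scaling with bars of 1 SE, filled where called. Squares are quantile normalization, triangles normexp background correction, and crosses the deposited normalized table by its own labels, where 12 of the 15 signs are turned. Col1a1 keeps its direction in all 3 scanner-based values and Col2a1, Col9a2 and Col23a1 do not.

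Many collagen genes carry a second probe, which gives a reading of the same gene on the same arrays. Of the 9 genes with more than 1 probe, 8 had both probes tested. The difference between their log2 fold changes was tested in limma on the difference of the 2 probes' signals on each array, which cancels any scaling that is the same for all spots of an array, and it was adjusted over the 2626 named genes with 2 or more tested probes. It was called for 5 of the 8 chains, against 53.4% of those 2626 genes, and the median size of the difference was 0.73 for the chains and 0.66 for all. These comparisons were added after the first results had been seen.

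Col1a1 had the widest gap. Its second probe read 3.16, 3.39 and 3.29 on the arrays labelled control, against 1.95, 2.01 and 2.18 on those labelled S3d, so this probe fell by 1.23 on the log2 scale (SE 0.094, adjusted p = 8.1e-05) where the brightest probe rose by 1.52. The brightest probe lay above the second by 0.99, 0.71 and 0.72 on the arrays labelled control. Under the S3d label that margin was 3.58, 3.54 and 3.56. The fold changes differed by 2.75 (SE 0.090, adjusted p = 5.4e-06), between 2.71 and 2.85 with each array left out in turn, and by 3.03 after quantile normalization and 2.96 after normexp with the 75th percentile. Among the 2626 genes 60, or 2.28%, had a larger difference. Both probes of a gene were called in opposite directions in 6.05% of the genes, and Col1a1 was the only one of the 8 chains among them. On adjusted p alone both probes passed with opposite signs in 18.2%, and of the chains Col1a1 and Col1a2 did. Which of its probes follows the Col1a1 transcript was not tested, and their sequences were not used here.

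Col1a2 showed a smaller gap in the other sense. Its second probe read 2.79, 2.82 and 2.65 against 2.95, 2.97 and 3.16 under the S3d label, a difference of 0.28 (SE 0.088, adjusted p = 0.029), where the brightest probe gave −0.47. The fold changes differed by −0.75 (SE 0.073, adjusted p = 0.00014) and by −0.46 after quantile normalization. Col9a1 had the same opposition with the array S3d replicate 2 set apart: its second probe fell by 0.64 (SE 0.091, adjusted p = 0.0011), from −3.56, −3.50 and −3.44 to −4.18, −4.25 and −3.98. The fold changes of its probes differed by 1.32 (SE 0.31, adjusted p = 0.0080).

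Other pairs kept their sign. For Col4a1 the second probe fell further than the brightest, from 2.41, 2.57 and 2.50 to 1.28, 1.30 and 1.13, or −1.26 (SE 0.079, adjusted p = 4.2e-05), and the gap between the probes was 0.62 (SE 0.093, adjusted p = 0.0010). Col5a1, which did not pass by its brightest probe, rose by 0.81 (SE 0.073, adjusted p = 0.00016) by its second, from −1.84, −1.80 and −1.83 to −0.91, −1.12 and −1.01, a gap of −0.71 (SE 0.072, adjusted p = 0.00017) that turned to 0.32 under normexp with the 75th percentile. Col18a1 gave −0.45 and −0.47 by its probes, with a gap of 0.027 (SE 0.058, adjusted p = 0.68). The gap was 0.42 (SE 0.12, adjusted p = 0.019) for Col23a1, whose second probe gave 0.34. No gap is given for Col2a1, since its probes were well above background on none and on 1 of the arrays labelled control, and the pair, counted among the 8, was not called.

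**Figure D3:**
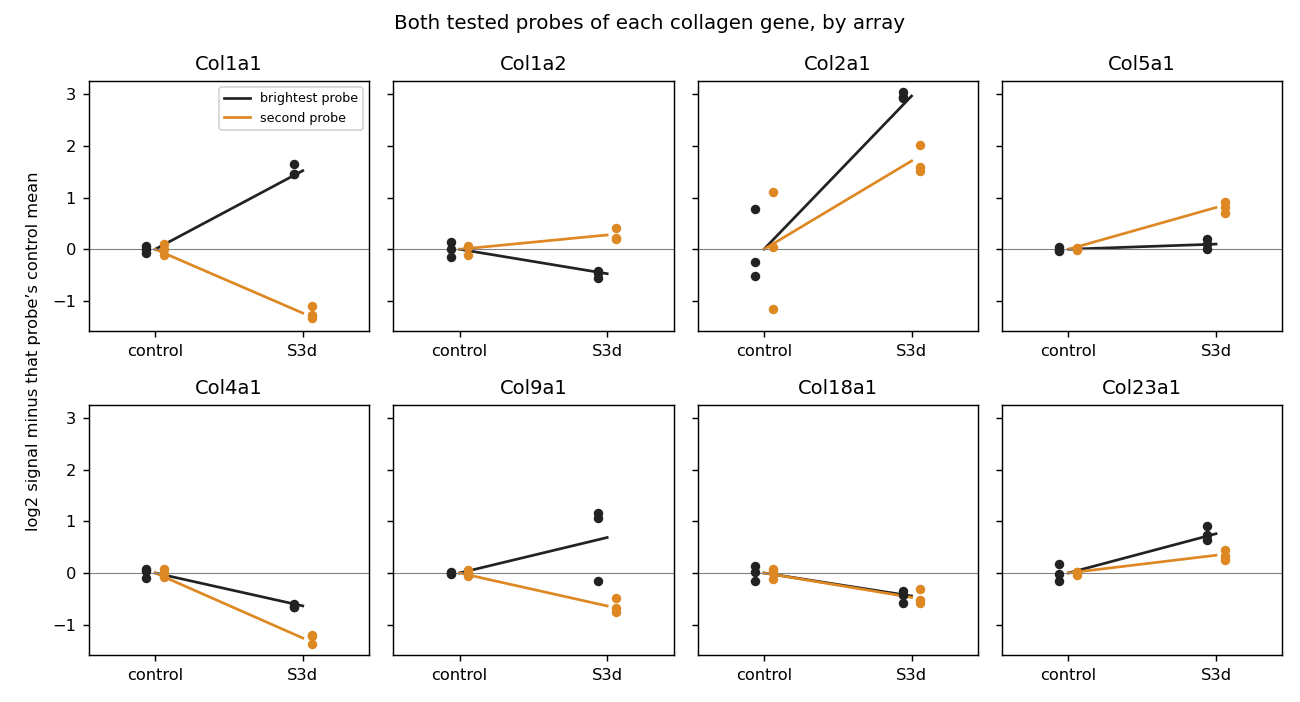
Signal of the brightest probe (black) and the second probe (orange) of the 8 collagen genes with both probes tested, each as the normalised log2 signal minus that probe's mean on the arrays labelled control (y axis), by array label (x axis). Points are single arrays and lines join the means of 3 arrays. The probes of Col1a1 part by 2.75, the lines of Col1a2 and Col9a1 also cross 0 in opposite directions, and those of Col18a1 lie on each other.

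Log2 fold changes on these arrays moved with brightness, and the chains lay at both ends of that scale. With the 31367 tested probes split into 5 equal bins by mean log2 signal, the median log2 fold change ran from 0.78 in the dimmest bin through 0.23, 0.092 and −0.018 to −0.32 in the brightest. With normexp and the 75th percentile the order was turned, from −1.73 in the dimmest bin to 0.17 in the brightest, and 5.59% of all probes and 1 of the 15 chains, Col1a1, were called. Col1a1, Col1a2, Col3a1, Col5a1, Col4a1 and Col18a1 were in the brightest bin, where the interquartile range of all probes was −0.82 to 0.16. Of these, Col1a1 stood above that range and the other 5 within it. Col2a1 and Col7a1 were in the dimmest bin, and Col9a2 and Col23a1 in the next. The part of brightness in the chains' values was not tested.

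**Figure D4:**
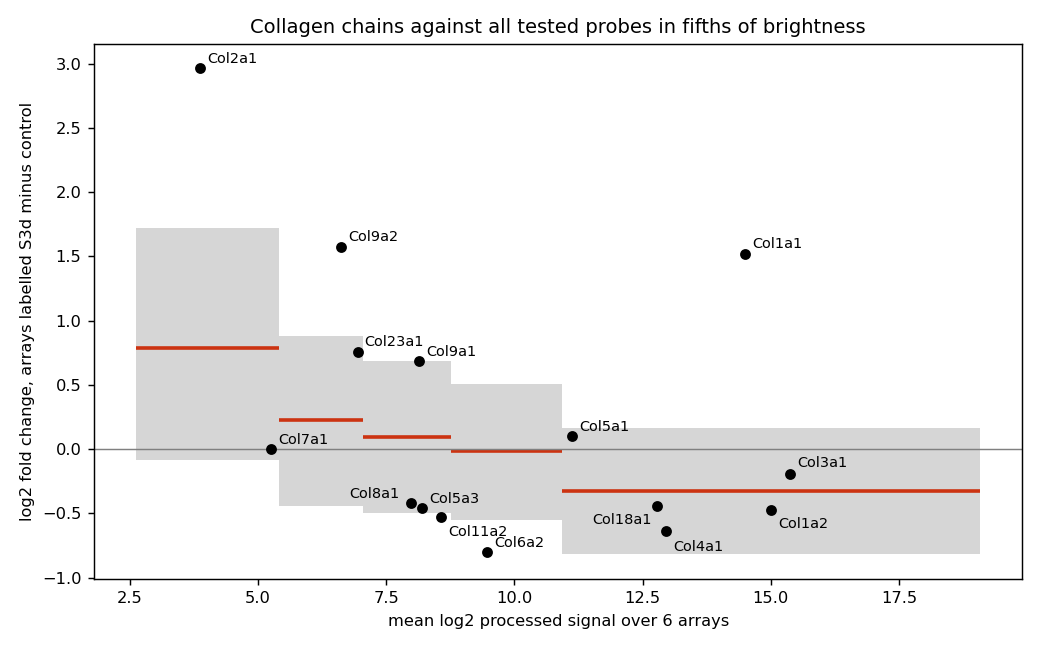
Log2 fold change (y axis, arrays labelled S3d minus control) of the 15 tested collagen chains (points) against the mean log2 processed signal over 6 arrays (x axis). Red lines are the median of all tested probes in each of 5 bins of brightness and grey boxes the interquartile range. The medians fall from 0.78 to −0.32 with brightness, Col1a1, Col2a1 and Col9a2 lie well above their boxes, Col6a2 lies below its own, and Col9a1 and Col11a2 lie just past an edge.

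The enzymes and chaperones that fold and modify collagen in the endoplasmic reticulum were split. Of 16 tested, 2 were higher and 4 lower, and the list's median was −0.030, to be read, as for the lists that follow, beside the 25.2% higher, 24.0% lower and median of 0.0020 of all named genes. Serpinh1 (HSP47), the collagen-specific chaperone, rose from 2.62, 2.70 and 2.49 to 3.23, 3.23 and 3.36 on the arrays labelled S3d, at 0.67 (SE 0.083, adjusted p = 0.00056). It was 0.92 after quantile normalization, but the call was lost with median centring (0.50, below the minimum fold) and with normexp and the 75th percentile (1.23, adjusted p = 0.092). The largest falls were those of P3h1, a prolyl 3-hydroxylase, at −1.19 (SE 0.20, adjusted p = 0.0022), and Plod2, a lysyl hydroxylase of the telopeptides, at −1.18 (SE 0.17, adjusted p = 0.0013). The mean over all probes of Plod2 gave −0.28 (adjusted p = 0.073), which ended its call. The subunits of prolyl 4-hydroxylase, P4ha1 and P4hb, differed by 0.028 (SE 0.13, adjusted p = 0.85) and −0.047 (SE 0.071, adjusted p = 0.57), and the latter read 0.92 after quantile normalization.

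Of 8 tested enzymes and helpers that trim and cross-link secreted collagen, 5 were lower on the arrays labelled S3d and 1 higher, with a median of −0.84. The remaining members, Tgm2 (−0.052) and Loxl2 (0.18), did not pass. Furin, a protease that activates the enzymes trimming procollagen, fell from 1.95, 2.02 and 2.22 to −0.01, 0.06 and −0.05, by 2.07 on the log2 scale (SE 0.089, adjusted p = 1.6e-05). The other members lower were Pcolce (−1.31) and Bmp1 (−1.22), which cut the end of procollagen or help that cut, and the lysyl oxidase relatives Loxl4 (−1.09) and Loxl1 (−0.59), of which Loxl1 stood below the minimum fold after quantile normalization (−0.44). Loxl3, a lysyl oxidase relative that cross-links fibres, rose by 1.62 (SE 0.12, adjusted p = 7.6e-05), and normexp with the 75th percentile turned it to −0.79. Lox itself was not matched to a probe and was not analysed here.

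Of 7 collagen receptors tested, 1 was higher and 2 lower, with a median of −0.39. Ddr1, a receptor kinase for collagen on epithelial cells, fell by 2.21 (SE 0.11, adjusted p = 2.3e-05) and Itga1, the collagen-binding integrin chain of smooth muscle and fibroblasts, by 1.21 (SE 0.084, adjusted p = 5.7e-05). The call of Itga1 was lost with normexp and the 75th percentile (−0.66, adjusted p = 0.28). The receptor that rose was Adgrg1, at 0.87.

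Proteoglycans and glycoproteins of the fibrils went both ways, 4 higher and 4 lower of 15, with a median of −0.26. Lum (lumican), which spaces fibrils, rose by 1.07 (SE 0.069, adjusted p = 4.4e-05) and Thbs1, a matrix glycoprotein that activates latent TGF-beta, fell by 1.97 (SE 0.28, adjusted p = 0.0010). Thbs1 entered the test through the arrays labelled control, and 2 of the 3 arrays labelled S3d were well above background for it. Sparc, a collagen-binding protein, fell from 5.83, 5.90 and 5.83 to 4.97, 5.03 and 5.27, at −0.76 (SE 0.10, adjusted p = 0.00061), and read −0.22 after quantile normalization. Dcn (decorin), another spacer, gave −0.53 (SE 0.079, adjusted p = 0.0013), below the minimum fold, with −0.12 after quantile normalization and 0.13 with normexp and the 75th percentile.

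Of 9 basement membrane partners of type IV collagen tested, 2 were higher and 3 lower, with a median of 0.17. Lamc3, a laminin chain, rose by 1.46 (SE 0.26, adjusted p = 0.0030) from low signals, and normexp with the 75th percentile turned it to −1.26. It was well above background on 2 of the arrays labelled control, so it entered the test through the arrays labelled S3d alone and the filter favoured a rise. Agrn (agrin), a heparan sulfate proteoglycan of the sheet, fell by 1.07 (SE 0.064, adjusted p = 3.6e-05). Its call was lost with normexp and the 75th percentile (−0.49, adjusted p = 0.31).

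The genes of TGF-beta signalling, whose ligands drive collagen transcription in fibroblasts, were 3 higher and 2 lower of 14, with a median of −0.14. The receptor Tgfbr2 was among those lower, at −0.84 (SE 0.091, adjusted p = 0.00032). Tgfb3 rose by 1.76 (SE 0.13, adjusted p = 6.6e-05). Tgfb1 gave 0.37 (SE 0.086, adjusted p = 0.0081), below the minimum fold, and −0.22 with normexp and the 75th percentile.

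Markers of the cells that make or surround collagen were read beside the chains, as the sum over each list of the linear normalised signals, in multiples of the 75th percentile of the array. The fibroblast sum over 12 matched markers was 44.9 to 48.8 on the arrays labelled control and 46.4 to 48.1 on those labelled S3d, so the groups overlapped. Dcn made up 42.1% to 44.9% of it under the control label and 28.9% to 31.1% under the S3d label. Without Dcn the sum was 25.3 to 27.5 against 32.9 to 33.8, higher without overlap. Of 11 fibroblast markers tested 2 were higher and 1 lower, led by Cd34, at −1.58 (SE 0.38, adjusted p = 0.0094), and Fbn1 (fibrillin), at 1.38 (SE 0.071, adjusted p = 2.3e-05). Cd34 entered the test through the arrays labelled control, and was well above background on 2 of the 3 labelled S3d. The fibroblast counts were 4 higher and 2 lower with quantile normalization, 2 and 3 with median centring, and 3 and 0 with normexp and quantile normalization. The smooth muscle sum over 8 markers overlapped as well, at 130 to 155 against 117 to 138. The actin Actg2 made up 36.8% to 39.1% of it under the control label and 52.0% to 54.5% under the S3d label. Without Actg2 the sum was 82.3 to 94.5 against 54.1 to 62.9, lower without overlap. Of the smooth muscle markers 1 was higher and 4 lower, among them Mylk at −1.57 (SE 0.067, adjusted p = 1.6e-05) and Des (desmin) at −1.19 (SE 0.14, adjusted p = 0.00051). The smooth muscle marker that rose was Myh11, the myosin heavy chain of that tissue, at 0.98, and after quantile normalization Actg2, a smooth muscle actin, was called higher too (0.97), with 2 higher and 3 lower. Enterocyte markers, the check of the tissue label, were well above background on all 6 arrays, and their sum was 3672 to 4086 on the arrays labelled control and 1678 to 1735 on those labelled S3d. Of 12 tested, 6 enterocyte markers were lower and 1 higher, led by Fabp1, the fatty acid carrier, at −1.64 (SE 0.061, adjusted p = 1.3e-05) and Slc5a1, the glucose carrier, at −1.57 (SE 0.12, adjusted p = 8.7e-05). The enterocyte counts turned with the scaling, since quantile normalization gave 1 lower, Slc5a1, and 3 higher, Apob (0.83), Anpep (0.81) and Lct (0.76), with a median of 0.14 in place of −0.70, and Fabp1 at −0.33. The part of the cell make-up in the collagen values was not tested.

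**Figure D5:**
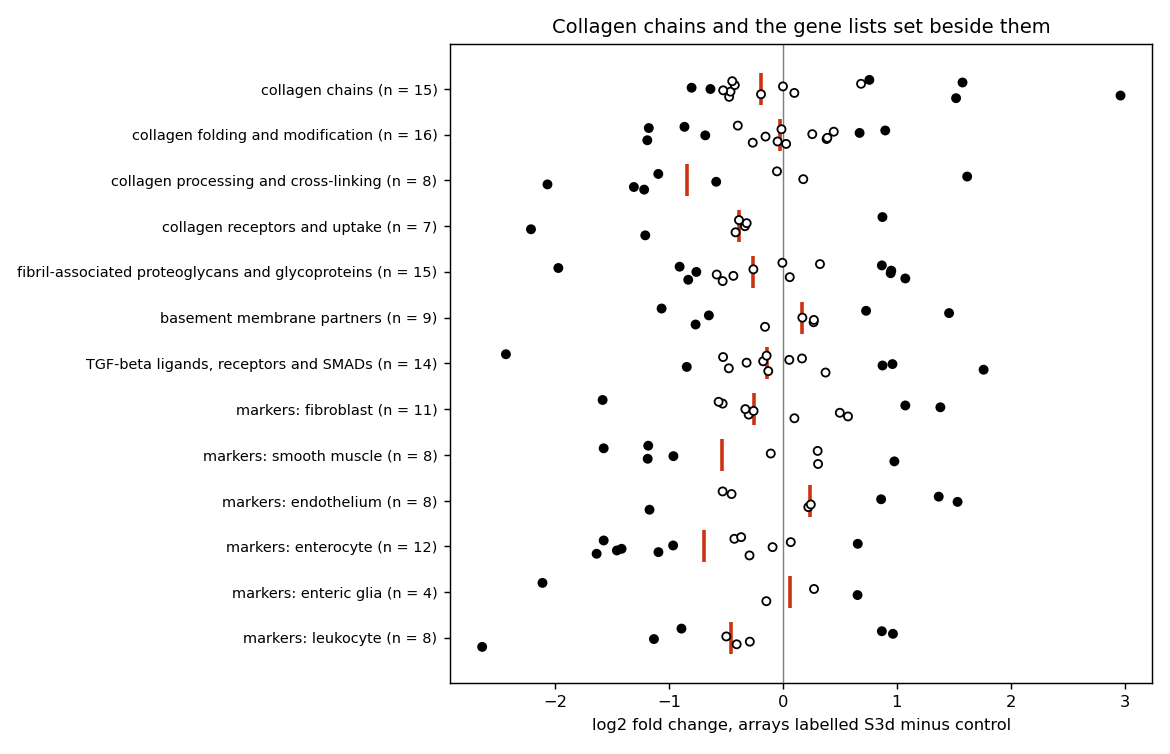
Log2 fold change (x axis, arrays labelled S3d minus control) of every tested gene of the collagen chains and of 12 gene lists (y axis, with the number tested), by the brightest probe. Filled points are called genes, open points are not, and red bars are list medians. The chains lie on both sides of 0 with a median of −0.19, and the processing and cross-linking list lies lowest with −0.84.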

How the data were processed

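The authors deposited 1-colour scanner intensities from Agilent Feature Extraction 10.7.3.1 (10.7 in the submitters' processing notes). The processed signal is already corrected for background and is not normalized between arrays. A table of log2 values was deposited as well, and its 6 columns, once sorted, differ by at most 0.0025 (median 6.65 in each, no centring of probes). The table was therefore quantile-normalized, by a program not given in the sources used here. Each column ranks the probes like the equally numbered scanner file of the other group (Spearman's rho 1.00, against 0.94 to 0.95 with their own). No sample was reassigned. Scanner labels are used throughout, and which source is right was not tested. The labels were not set against the real-time PCR that the study reports.

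From the scanner files, control spots and outlier-flagged spots were left out, spots of a probe were averaged, and the 75th percentile of each array was subtracted from the log2 processed signal. A probe entered the test if either group had it well above background on each of its 3 arrays. The test was limma 3.58.1 (lmFit, eBayes, no block) in R 4.3.3, with Benjamini-Hochberg adjustment over 31367 probes, after a test on simulated data. A gene is read by the probe with the highest mean log2 processed signal. Probes were named through RefSeq accessions and the RefSeq table of GRCr8, and tables and figures were made in Python 3.11.15 (pandas 2.3.3, numpy 2.4.6, matplotlib 3.10.9). Replicates are labelled samples of pooled RNA, so p-values measure the spread between these samples, and their number limits the precision.

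The members, lists and tests were chosen with earlier results of these data known. The rule names the main gut collagens, Serpinh1, P4ha1, P4hb, Lox, Sparc, Dcn and Tgfb1 always, the largest called changes of each class, chains whose probes are called in opposite directions, and the 2 largest called changes of each list. Col2a1, Col5a3, Col11a2, Col8a1, Col9a1, Col14a1, Pcolce, Bmp1, Loxl4, Loxl1, Loxl2, Tgm2, Adgrg1, Tgfbr2, Myh11, Actg2, Apob, Anpep, Lct, Pecam1, Kdr, Itgam, Csf1r and Cd74 fall outside it and were named after their values were seen. The settings tried beside these were no scaling, median centring, quantile normalization, normexp (offset 50) with the 75th percentile or with quantile normalization, the deposited table, other filters, outliers kept, a replicate block, an intensity trend, array weights, the methods' analysis of variance, the mean over probes, other thresholds and each array left out. Normexp used the median spot signal, as the files hold no mean. Probe and protein sequences were not used here, and 1 of the genes the rule names is not reported here.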

Additional observations from a re-analysis of the deposited data

How the results depend on the processing

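The count of collagen chains called, 6 by the 75th percentile scaling, was 4 to 7 with quantile normalization, the deposited table, no filter on dim probes, the filter for signal on all 6 arrays, outlier spots kept, an intensity trend, array weights, the methods' analysis of variance (before and after Benjamini-Hochberg), the mean over a gene's probes and each array left out (6 to 7). Only Col1a1 was called in the same direction under every scanner-based normalization, and the mean over its probes ended that call (0.14). Leaving out an array gave 4 to 5 chains higher and 2 to 3 lower, 2 to 3 fibrillar, 1 to 2 basement membrane and 3 to 4 other chains called, and 16044 to 16830 probes of the whole array. Without S3d replicate 2 Col9a1 was called too, and without S3d replicate 1 the basement membrane count was 2.

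Scaling moved all probes, so values are best read against it: the median over the 31367 probes was, on the log2 scale, 0.085 with the 75th percentile, 0.017 with quantile normalization, −0.092 with median centring, 1.93 with no scaling, 0.011 with normexp and quantile normalization and −0.69 with normexp and the 75th percentile. The share of calls that were higher was 55.7%, 50.2%, 44.7%, 98.8%, 49.1% and 31.0% in that order.

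Median centring gave 10 chains called, 7 of them lower and 5 fibrillar. Without scaling 15 were called, 15 higher and 0 lower, with 7 fibrillar and 7 other chains and 28900 probes in all. Normexp with quantile normalization gave 2 chains called, 2 higher and 0 lower, with 1 fibrillar, 0 basement membrane and 1 other chain, and 8609 probes in all. Normexp with the 75th percentile gave 1 chain, 1 higher and 0 lower, with 1 fibrillar, 0 basement membrane and 0 other chains, and 1752 probes in all. Quantile normalization left 1 chain lower and 0 basement membrane chains called. The deposited table, by its own labels, gave 1 chain higher and 0 basement membrane chains called. Signal on all 6 arrays left 1 fibrillar chain, and no filter on dim probes gave 2 basement membrane chains. The mean over a gene's probes gave 2 chains higher and 1 fibrillar chain. Without the minimum fold 11 chains passed, 7 of them lower, with 5 fibrillar and 5 other chains. With the limits set to 0.01 for the adjusted p and 2 for the fold, 3 passed, with 0 lower, 0 basement membrane chains and 1 other chain, and 9347 probes in all.

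Quantile normalization turned the sign of Col1a2 (0.058), Col3a1 (0.39), Col7a1 (−0.42), P4ha1 (−0.00027) and P4hb (0.92). With median centring Col5a1 was −0.076, Col7a1 −0.18 and P4ha1 −0.15. Normexp with quantile normalization turned Col1a2 (0.081), Col3a1 (0.25), Col7a1 (−0.16), P4ha1 (−0.10) and P4hb (0.89). Normexp with the 75th percentile turned Col1a2 (0.12), Col2a1 (−1.44), Col3a1 (0.29), Col7a1 (−1.69), Col9a2 (−0.27), Col18a1 (0.20), Col23a1 (−0.67), Dcn (0.13), Lamc3 (−1.26), Loxl3 (−0.79), P4ha1 (−0.51), P4hb (0.61), Sox10 (−0.20), Tek (−1.49), Tgfb1 (−0.22) and the gap between the probes of Col5a1 (0.32). Outlier spots kept gave −0.00043 for Col7a1, and array weights −0.11 for Col7a1 and −0.044 for P4ha1. Col7a1 was −0.040 without control replicate 1, −0.028 without control replicate 3 and −0.12 without S3d replicate 1 (−0.12 to 0.074 over the 6 arrays), and P4ha1 was −0.10 without control replicate 3.

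Without scaling, the values turned positive for Col1a2 (1.37), Col3a1 (1.65), Col5a3 (1.39), Col11a2 (1.32), Col4a1 (1.21), Col6a2 (1.04), Col8a1 (1.42), Col18a1 (1.40), Agrn (0.78), Cd34 (0.26), Cd79b (0.71), Dcn (1.32), Des (0.66), Fabp1 (0.21), Itga1 (0.64), Mylk (0.27), P3h1 (0.65), P4hb (1.80), Plod2 (0.67), Slc5a1 (0.27) and Sparc (1.09). By the labels of the deposited table the sign was turned for Col1a1 (−2.02), Col2a1 (−2.35), Col5a1 (−0.17), Col5a3 (0.55), Col11a2 (0.58), Col4a1 (0.36), Col6a2 (0.80), Col8a1 (0.53), Col9a1 (−0.60), Col9a2 (−1.35), Col18a1 (0.19), Col23a1 (−0.58), Agrn (0.86), Cd34 (2.14), Cd79b (1.29), Dcn (0.14), Ddr1 (2.46), Des (0.75), Emcn (−1.30), Erbb3 (2.29), Fabp1 (0.24), Fbn1 (−1.56), Furin (2.00), Itga1 (0.90), Lamc3 (−0.94), Loxl3 (−1.28), Lum (−1.09), Mylk (1.43), P3h1 (1.11), Plod2 (1.43), Ptprc (2.76), Serpinh1 (−0.92), Slc5a1 (1.24), Sox10 (−0.57), Sparc (0.20), Tek (−0.99), Tgfb1 (−0.28), Tgfb3 (−1.70) and Thbs1 (2.62). The exchange of labels sets these signs, and for the other changes the cause was not tested.

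The replicate number as a block gave 16314 probes called in place of 16452 and 6 chains, and changed no call of a named gene. Arrays of the same number did not deviate together (correlations of −0.088 to 0.056, against −0.14 to 0.099 between other numbers). So few pairs cannot exclude a shared step or pool, which was not tested.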

Other observations

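Cell types that were not described above varied in both directions. Of 8 endothelial markers tested, 3 were higher on the arrays labelled S3d and 1 lower (median log2 fold change 0.23), led by Tek, a receptor of vessel walls, at 1.53 (SE 0.080, adjusted p = 2.4e-05 by limma), and Emcn (endomucin), at 1.37 (SE 0.066, adjusted p = 2.0e-05). The marker that fell was Pecam1 (CD31), a junction protein of endothelium, by 1.17 on the log2 scale (adjusted p = 3.0e-05) and by 1.58 after quantile normalization. The summed endothelial signal, 7.03 to 8.63 times the 75th percentile on the arrays labelled control and 9.06 to 9.32 times on those labelled S3d, was 82.6% to 85.1% Kdr, which did not pass (0.24, adjusted p = 0.064). Tek was well above background on 1 array labelled control, so it entered the test through the arrays labelled S3d alone and the filter favoured a rise. Normexp with the 75th percentile turned its value to −1.49.

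Leukocyte markers were 2 higher and 3 lower of 8 tested (median −0.45). Ptprc (CD45), carried by all white blood cells, fell by 2.64 (SE 0.12, adjusted p = 1.8e-05) and Cd79b, of the B cell receptor, by 1.13 (SE 0.14, adjusted p = 0.00062), while the myeloid markers Itgam (0.97) and Csf1r (0.87) rose. The summed leukocyte signal was 110 to 125 on the arrays labelled control and 58.6 to 71.2 on those labelled S3d. Cd74, of antigen presentation, made up 89.7% to 93.8% of it and read −0.89, or −0.17 after quantile normalization. Enteric glia were read by 4 tested markers, with Erbb3, which enterocytes also carry, lower by 2.11 (SE 0.068, adjusted p = 1.1e-05) and Sox10 higher, at 0.66 (SE 0.090, adjusted p = 0.00089). The Sox10 call was lost, below the minimum fold, with quantile normalization (0.57), median centring (0.48) and normexp with quantile normalization (0.28). The glial sum was 1.15 to 1.23 against 0.967 to 1.00, and S100b was not well above background on any array.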
